A study of Mus musculus with 8 samples.

Results

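Agrn, Lrp4, Musk, Dok7 and Rapsn encode the signalling core that assembles the postsynaptic side of the neuromuscular junction (NMJ). The members were taken by their symbols, and all 5 were found once among the 19465 genes of the Visium probe panel. Their UMIs, counts of distinct captured molecules, were read in 8 sections of embryonic mouse diaphragm, by stage, genotype and position of the spots. The sections fell into 5 groups. At E14.5 there were 3 controls and a single CaV1.1 KO, and the later stage, E18.5, had 2 controls besides 1 KO and 1 bCat cKO. The CaV1.1 KO (CaV1.1 -/-, the dysgenic mouse) lacks the voltage sensor of excitation-contraction coupling in every cell, so that its muscles do not contract. The bCat cKO carries floxed β-catenin alleles and a Cre under a skeletal actin promoter, so that deletion is driven in muscle fibers while nerve and other cells keep β-catenin. Controls had at least 1 expressing allele of either gene, and their exact genotypes were not given in the sources used here. Each section came from its own embryo, and each mutant group was 1 embryo.

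Agrin is a heparan sulfate proteoglycan of basement membranes, and motor axons secrete a splice form of it that acts on muscle. Lrp4, a receptor of the LDL receptor family, binds this neural agrin and thereby activates the receptor tyrosine kinase MuSK. Dok7 is the cytoplasmic adaptor that MuSK needs for activity, and rapsyn, encoded by Rapsn, is the scaffold that holds acetylcholine receptors in clusters. In the diaphragm the endplates lie in a band across the middle of the fibers, and muscle of the mouse embryo prepatterns this central zone before the nerve instructs it. Transcription of several of these genes in the nuclei below the endplate is promoted by neuregulin and Ets factors and, in the rest of the fiber, is reduced by muscle activity. The probes of this assay count all transcripts of a gene they match, so the neural and muscle forms of agrin could not be separated, and levels were compared only within a gene.

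On GRCm38 (GENCODE vM21), Agrn (ENSMUSG00000041936) lies on chromosome 4 from 156165290 to 156197488 on the minus strand. Musk (ENSMUSG00000057280) lies on the plus strand of chromosome 4 from 58285960 to 58374303. Lrp4 (ENSMUSG00000027253, 91457511 to 91513779) and Rapsn (ENSMUSG00000002104, 91035620 to 91045729) are both on the plus strand of chromosome 2. Dok7 (ENSMUSG00000044716) spans 35056766 to 35087839 on the plus strand of chromosome 5. No protein-coding gene overlapped a member in this annotation. Promoters are shown because position within the fiber is what separated the members below. The 250 bases before the start site were read from a table of RefSeq promoters (GRCm38.p6), in which 3 of the 5 members were matched, and Lrp4 and Rapsn are named only. Capitals mark E-boxes (CANNTG, the motif bound by myogenic factors, both strands at once since it is a palindrome).
Musk: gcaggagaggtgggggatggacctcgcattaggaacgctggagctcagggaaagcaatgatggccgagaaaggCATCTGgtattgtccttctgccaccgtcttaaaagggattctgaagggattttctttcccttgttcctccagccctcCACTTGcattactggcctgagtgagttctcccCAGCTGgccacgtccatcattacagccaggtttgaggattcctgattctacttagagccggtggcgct
Dok7: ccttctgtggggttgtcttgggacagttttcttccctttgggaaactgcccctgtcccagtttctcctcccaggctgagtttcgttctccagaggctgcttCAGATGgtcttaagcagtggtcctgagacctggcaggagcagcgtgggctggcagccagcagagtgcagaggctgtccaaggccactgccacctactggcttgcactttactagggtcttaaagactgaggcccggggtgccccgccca
Agrn: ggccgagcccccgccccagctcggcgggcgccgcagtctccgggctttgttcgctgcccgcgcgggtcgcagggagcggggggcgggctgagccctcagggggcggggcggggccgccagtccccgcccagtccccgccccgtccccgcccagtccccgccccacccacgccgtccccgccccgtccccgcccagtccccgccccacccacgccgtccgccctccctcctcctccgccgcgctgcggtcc

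The Musk window (chr4:58285712-58285961) held 3 E-boxes and Dok7 (first listed start, chr5:35056516-35056765) held 1, and Agrn (first listed start, chr4:156197489-156197738, minus strand) held 0. The second listed starts, not shown, went the other way, with 0 in Dok7 (GC 75.2%) and 1 in Agrn (GC 60.8%). Of 32851 windows of this length, 66.2% held at least 1 E-box, with a mean of 1.16 a window. The N-box CCGGAA, read on both strands, was in none of these 3 windows and in 12.03% of all windows. GC content was 53.6% for Musk, 58.8% for Dok7 and 83.6% for Agrn, and 99.7% of all windows were below this Agrn value. These matches describe the letters of the windows and are not measured binding sites.

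The tissue spots held 14179161 to 82859104 UMIs a section, with a median of 15434 to 45284 a spot. Spots are 55 µm wide and 100 µm apart, so each covers several cells and fibers. Muscle spots were those high for 9 sarcomere genes, and made up 55.04% to 89.4% of the spots of a section. Among them, the 15% highest for 7 other endplate genes (Chrna1, Chrnd, Chrng, Ache, Etv5, Prkar1a and Ufsp1) are called center, and the 15% highest for 4 myotendinous genes periphery. Other muscle is intermediate, and the remaining spots are outside muscle. None of the members was used to choose spots, but center spots were chosen on genes measured in the same libraries. Of the muscle neighbors of a center spot, 33.0% to 60.1% were center spots too. Cacna1s, the gene of CaV1.1, was at 16.2 CPM in the KO muscle at E14.5 against 18.3 to 22.8 in controls, and at 31.4 against 61.2 and 63.9 at E18.5. Its difference was called only at E18.5 (log2 fold change -1.53 ± 0.15 SE, edgeR adjusted p = 0.0013, against -0.30 ± 0.14, adjusted p = 0.34, at E14.5). Ctnnb1, the gene of β-catenin, did not differ by the test in the bCat cKO (-0.07 ± 0.12, adjusted p = 0.77). Where its probes lie relative to the deleted exons was not given in the sources used here, so this value does not check the genotype.

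Musk had the clearest spatial pattern of the 5. In control muscle at E14.5 it reached 114, 94.2 and 80.0 TMM-scaled CPM in the center, against 58.6, 45.3 and 61.0 in intermediate spots and 49.5, 35.7 and 58.2 in the periphery. TMM-scaled CPM are UMIs scaled to the same library total, counts per 1e6, after edgeR's correction of each sum. At E18.5 the center held 106 and 115, the intermediate spots 54.4 and 58.2, and the periphery 37.7 and 40.2. The center was above the intermediate spots in 5 of 5 control sections, and center values did not overlap those of either other muscle region at either stage, while intermediate and periphery values overlapped at E14.5. How many of all genes lacked such overlap was not counted, so this does not set Musk apart. The log2 fold change of center over intermediate spots was 0.84 ± 0.13 (SE) at E14.5 and 0.97 ± 0.14 at E18.5 (edgeR adjusted p = 0.0015 and 6.9e-04). In the same comparisons 4.7% of 15025 genes were called at E14.5 and 1.96% at E18.5. The periphery was below the intermediate spots at E18.5 (-0.53 ± 0.15, adjusted p = 0.027), where 14.8% of genes were called, and not by the test at E14.5 (-0.23 ± 0.14, adjusted p = 0.47), where 1.28% were. The call at the periphery was lost in 7 of 12 alternative settings, among them without either E18.5 control (adjusted p = 0.12 and 0.15). The center call at E14.5 was lost without E14.5 control 2 (0.72, adjusted p = 0.079) and without the section block (0.81, adjusted p = 0.054), whereas that at E18.5 was kept in 12 of 12. All 6 Schwann cell markers were detected in these spots, and their sum was also higher in the center in 5 of 5 controls, at 66.4 to 85.7 CPM against 49.1 to 58.5 at E14.5 and at 60.95 and 70.6 against 27.8 and 33.0 at E18.5. Their part in the Musk values was not tested. No other member was called at the periphery at either stage.

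**Figure D1:**
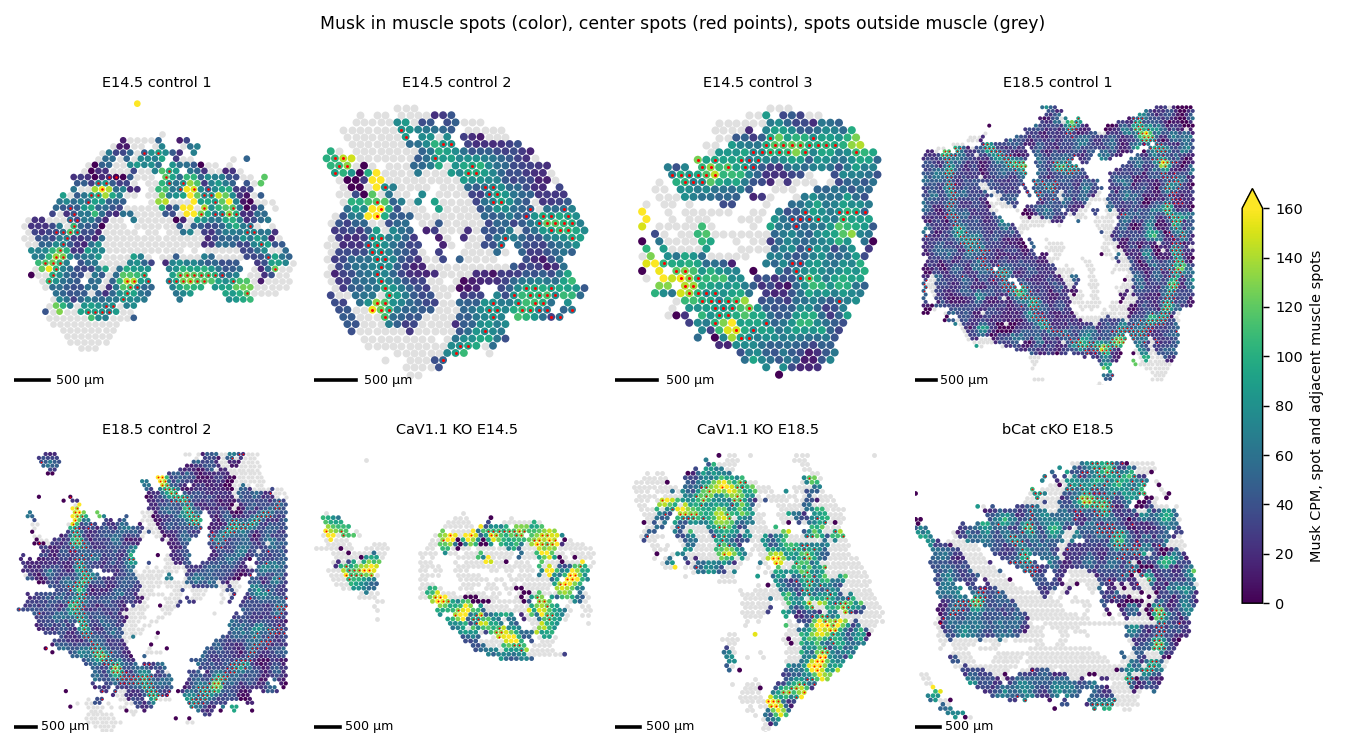
Musk in the 8 sections, drawn as CPM of total UMIs over each muscle spot and its adjacent muscle spots, with center spots marked by red points and spots outside muscle in grey. Each panel has its own scale bar of 500 µm. In the E18.5 controls the raised values form a thin band that follows the center spots.

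The same gradient appeared when muscle spots were read by their distance from the nearest center spot, as CPM of total UMIs. In E14.5 control 1 Musk fell in steps from 123 in the center to 76.1 up to 150 µm away, 53.1 up to 250 µm and 45.9 up to 350 µm. In control 2 the same steps were 105, 63.9, 51.2 and 39.5, and in control 3 they were 94.2, 84.4, 69.4 and 49.95. Farther out the E14.5 sections parted: control 2 stayed low, at 27.3 up to 450 µm and 33.8 beyond, whereas control 3 rose to 68.6 and 71.5, and control 1 stood at 49.7 and then at 76.0 in a last bin of 11 spots. At E18.5 the levels dropped at once, from 77.1 to 36.1 in control 1 and from 80.0 to 37.5 in control 2, and then stayed between 30.01 and 38.9 in every farther bin. Thus Musk declined stepwise over the first 350 µm in 3 of 3 sections at E14.5, and over the first step alone at E18.5. Of all Musk UMIs in muscle, 32.1% (95% exact interval 29.7 to 34.5), 29.98% (27.8 to 32.2) and 20.99% (18.4 to 23.7) were in center spots of E14.5 controls 1 to 3. The shares at E18.5 were 29.5% (27.9 to 31.2) and 29.8% (28.1 to 31.6), while center spots held 15.2% to 19.1% of the UMIs of all genes in the 5 control sections. These intervals cover counting error only.

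Lrp4 was also higher in the center, by less. At E14.5 it stood at 23.8, 21.9 and 24.4 TMM-scaled CPM in the center and at 16.2, 16.1 and 19.6 in intermediate spots. These did not overlap, which was not counted over all genes. At E18.5 the values were 32.9 and 40.7 against 26.1 and 28.6. The log2 fold changes were alike in size, 0.45 ± 0.11 at E14.5 and 0.42 ± 0.11 at E18.5, but only the first was called (edgeR adjusted p = 0.035 and 0.054), and their difference was not (-0.03 ± 0.15, adjusted p = 0.99). The E14.5 call was lost without control 1 (0.39, adjusted p = 0.26) or control 2 (0.45, adjusted p = 0.25), without the section block (0.44, adjusted p = 0.21) and with scaling to the 9 sarcomere genes (0.23, adjusted p = 0.36), and the E18.5 value passed in 5 of 12 alternatives. By distance, in CPM of total UMIs, Lrp4 went from 25.9 in the center through 19.1 and 15.8 to 14.1 in E14.5 control 1, and from 24.4 through 20.01 and 18.3 to 15.8 in control 2. In control 3 the steps were 28.7, 25.2, 14.8 and 23.2, without an even decline. At E18.5 Lrp4 went from 23.9 and 28.2 in the center to 15.7 and 18.4 in the next bin, and stayed between 16.3 and 19.7 beyond. Musk and Lrp4 are thus the 2 members called higher in the center at the early stage, and Musk alone was at the late one.

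Dok7 and Rapsn, which act inside the fiber, were not called in the center at either stage. Dok7 stood at 24.3, 31.1 and 20.8 in the E14.5 center spots against 23.4, 19.7 and 21.2 in intermediate spots, and at 23.8 and 28.5 against 29.0 and 29.2 at E18.5 (0.30 ± 0.15 and -0.16 ± 0.16 on the log2 scale, with edgeR adjusted p = 0.31 and 0.72). At E14.5 only control 2 was well above its intermediate level. Rapsn was above the intermediate level in 3 of 3 sections at E14.5 (64.2, 52.7 and 42.8 against 58.7, 41.1 and 39.0) and below it in 2 of 2 at E18.5 (34.3 and 43.1 against 42.1 and 44.8). Neither difference passed the test (0.22 ± 0.12 and -0.17 ± 0.13, adjusted p = 0.33 and 0.63). By distance, Rapsn in CPM of total UMIs went from 69.7 in the center to 47.6 in the bin up to 350 µm in E14.5 control 1, from 58.6 to 45.1 in control 2 and from 50.4 to 38.8 in control 3. At E18.5 the 6 bins lay between 24.9 and 29.95 in both controls, so no slope with distance was seen there.

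Agrn did not follow the endplate zone. In E14.5 controls it was lower in the center than in intermediate spots in 3 of 3 sections (43.7, 44.8 and 43.2 against 51.8, 51.2 and 53.4 TMM-scaled CPM), without passing the test (-0.25 ± 0.09, edgeR adjusted p = 0.12). At E18.5 the center stood at 68.0 and 73.6 against 62.7 and 75.0, with a log2 fold change of 0.04 ± 0.09 (adjusted p = 0.88). The difference between the stages was 0.29 ± 0.12 (adjusted p = 0.29). No member's center difference changed by the test between the stages, a contrast in which 0.985% of 15025 genes were called. For Dok7 and Rapsn the change was -0.46 ± 0.22 and -0.39 ± 0.18 (adjusted p = 0.36 and 0.33), with 95% intervals from -0.93 to 0.01 and from -0.77 to -0.02.

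**Figure D2:**
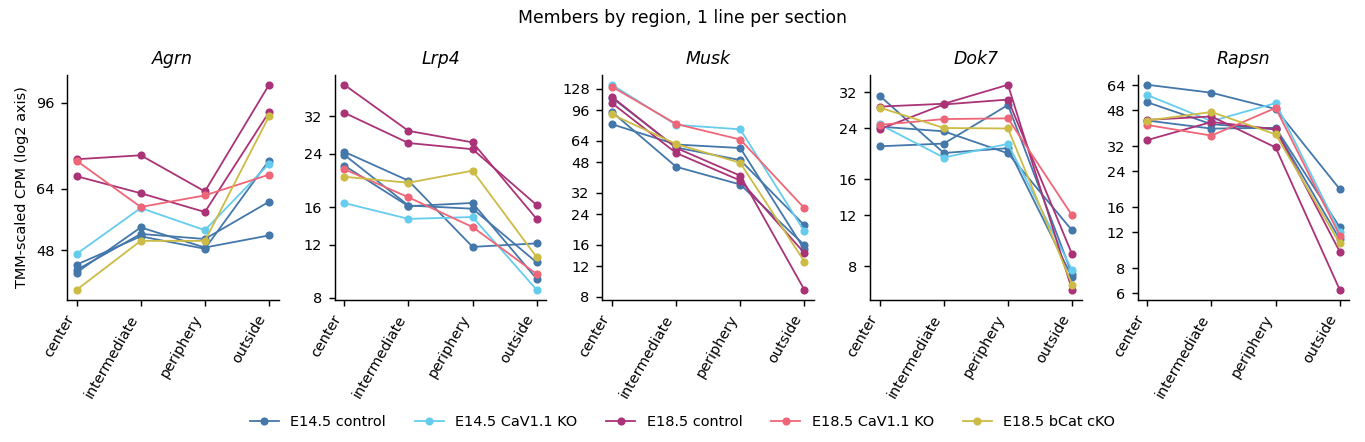
TMM-scaled CPM (log2 axis) of each member in center, intermediate, periphery and outside spots, with 1 line per section colored by group. Musk declines from center to outside in every section, while Agrn is higher outside muscle than in intermediate spots in 7 of the 8 sections.

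Outside muscle the members split. Musk, Dok7, Rapsn and Lrp4 were lower than in intermediate spots in 8 of 8 sections as TMM-scaled CPM, and Agrn was higher in 7 of 8. In CPM of total UMIs Lrp4 was at 16.7 outside against 16.4 in E18.5 control 1, and lower outside in the other sections. In E14.5 controls Rapsn went from 58.7, 41.1 and 39.0 TMM-scaled CPM in intermediate muscle to 19.6, 11.1 and 12.7 outside, and in E18.5 controls from 42.1 and 44.8 to 9.63 and 6.24. The log2 fold change of outside over intermediate spots was -1.70 ± 0.13 for Rapsn, -1.59 ± 0.15 for Musk, -1.28 ± 0.17 for Dok7 and -0.74 ± 0.12 for Lrp4 at E14.5 (edgeR adjusted p from 3.9e-08 to 9.2e-05). At E18.5 it was -2.46 ± 0.17, -2.29 ± 0.19, -1.91 ± 0.20 and -0.83 ± 0.12 (adjusted p from 3.0e-09 to 1.9e-05). All 5 members were thus called at both stages, where 46.6% and 63.8% of all genes were. With sums scaled to their total UMIs instead of TMM, Lrp4 at E18.5 was no longer called (-0.07, adjusted p = 0.59), and the median of all genes moved by 0.76 under that scaling, while the other 4 kept their calls. The 9 sarcomere genes themselves, which chose the spots, stood outside muscle at 23.3% to 35.7% of their intermediate CPM in the controls. Musk stood at 26.1% to 43.0% and Rapsn at 24.2% to 39.0% of theirs, Dok7 at 39.5% to 53.0% and Lrp4 at 65.0% to 102%, and the part of muscle RNA within outside spots was not tested.

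Agrn in outside spots reached 60.3, 73.2 and 51.4 TMM-scaled CPM in E14.5 controls against 51.8, 51.2 and 53.4 in intermediate muscle. At E18.5 it was 91.9 and 105 against 62.7 and 75.0. The log2 fold change was 0.29 ± 0.08 at E14.5 (edgeR adjusted p = 0.0065) and 0.52 ± 0.09 at E18.5 (adjusted p = 7.7e-05). At E14.5 control 3 went the other way, and the call was lost without control 2 (0.11, adjusted p = 0.35) and without the section block (0.27, adjusted p = 0.055). Outside spots held other tissues in unequal amounts: the summed markers of hepatocytes ranged from 0.145 to 11440 CPM over the 8 sections, those of erythrocytes from 239 to 24600, and those of tendon from 227 to 2770. To see where Agrn was high, the 10% of outside spots with the highest score for each of 11 marker lists were read, with overlap between lists allowed. Agrn had its highest medians over sections in spots rich in smooth muscle (125 CPM of total UMIs), endothelium (122), motor neuron body markers (109), mesothelium (104) and Schwann cells (100.3), which wrap the nerve. Its medians in spots rich in markers of cartilage, fibroblasts and macrophages were 84.2, 84.1 and 85.1. Spots rich in hepatocyte, tendon and erythrocyte markers were lowest, at 75.0, 67.5 and 66.2. Sections differed widely, from 36.5 to 149.5 in smooth-muscle-rich and from 54.7 to 182.5 in Schwann-rich spots, so this order of medians is a description. Smooth-muscle-, mesothelium- and motor-neuron-marker-rich spots were above all outside spots in 6 of 8 sections, and endothelium-, Schwann- and fibroblast-rich spots in 5 of 8. The tally was 4 for cartilage, 3 for macrophages, 2 for erythrocytes, and 1 each for hepatocytes and tendon. The motor neuron body list (Chat, Slc18a3, Isl1 and Mnx1) summed to only 4.94 to 28.5 CPM outside muscle, so it marks few transcripts.

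**Figure D3:**
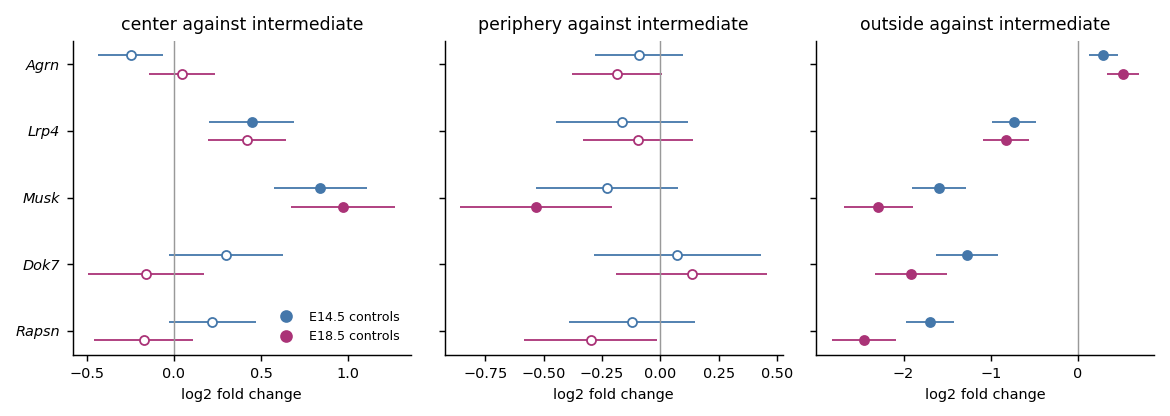
Log2 fold change of center, periphery and outside spots over intermediate muscle spots for the 5 members in E14.5 and E18.5 controls, with 95% intervals and filled points where the adjusted p was below 0.05. Musk lies right of 0 in the center and left of 0 outside, and Agrn lies right of 0 outside at both stages.

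Between E14.5 and E18.5 the comparison of control muscle depended on the scale. The 9 sarcomere genes took 2.01% to 2.65% of the UMIs of intermediate spots at E14.5 and 13.4% to 13.7% at E18.5. Measured as CPM of total UMIs, all 5 members were lower at E18.5: Musk was at 73.5, 58.3 and 74.3 at E14.5 and at 39.8 and 42.5 at E18.5, and Rapsn at 63.2, 47.8 and 46.3 and at 26.6 and 27.7. Dok7 went from 24.97, 24.3 and 26.0 to 18.8 and 19.5, Agrn from 54.1, 55.7 and 59.4 to 41.5 and 47.7, and Lrp4 from 19.0, 19.2 and 22.4 to 17.9 and 19.8. Only Lrp4 overlapped between the stages on this scale. The median gene moved by -0.73 (log2) under it, against -0.01 with TMM scaling. The share of all genes that overlapped was not counted, so the lack of overlap does not set the other members apart.

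With TMM scaling, the main test, Lrp4 was 16.6, 15.7 and 18.03 at E14.5 and 24.6 and 27.1 at E18.5, a log2 fold change of 0.63 ± 0.10 (edgeR adjusted p = 0.001). Agrn changed by 0.38 ± 0.09 and Dok7 by 0.33 ± 0.09 (adjusted p = 0.0051 and 0.011), from 45.6 to 47.9 and from 19.9 to 21.8 over the E14.5 controls to 57.2 and 65.2 and to 25.8 and 26.7 at E18.5. Musk (-0.02 ± 0.13, adjusted p = 0.91) and Rapsn (-0.24 ± 0.16, adjusted p = 0.24) were not called. Thus 3 of 5 members were called higher, where 65.6% of 14832 genes were called in either direction, so a call by itself sets no member apart. On total UMIs the direction of all 3 reversed, to -0.10 for Lrp4, -0.34 for Agrn and -0.39 for Dok7, and Agrn, Dok7, Musk and Rapsn were called lower. Relative to the median gene the values were the same under either scaling: 0.64 for Lrp4, 0.40 for Agrn, 0.34 for Dok7, -0.0039 to -0.0017 for Musk and -0.22 to -0.21 for Rapsn. Since a change of scaling shifts all genes nearly alike, this match was fixed in advance and does not settle the direction of any member. Leaving out E14.5 control 1, where Rapsn was highest, moved Rapsn from -0.24 to -0.04 with TMM.

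**Figure D4:**
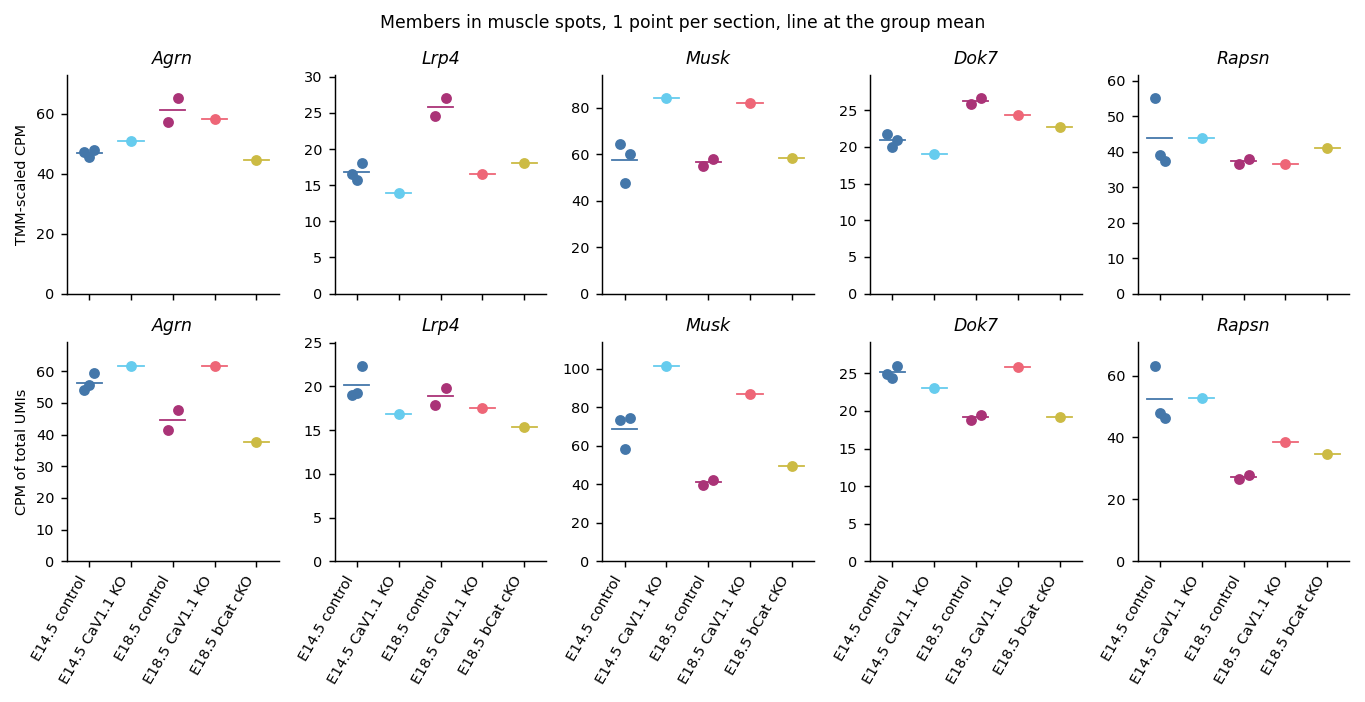
Levels of the members in muscle spots, 1 point per section and a line at the group mean, as TMM-scaled CPM (top) and CPM of total UMIs (bottom). Lrp4 of E18.5 controls lies above that of E14.5 controls on the top scale and overlaps it on the bottom one, and Musk is highest in the CaV1.1 KO sections on both.

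Ratios between members in the same spots need no scaling, and they moved too. For each molecule of Lrp4 counted in muscle there were 3.87, 3.04 and 3.32 of Musk in E14.5 controls and 2.23 and 2.15 in E18.5 controls. The ratio of Rapsn to Lrp4 went from 3.32, 2.49 and 2.07 to 1.49 and 1.40, and that of Dok7 to Lrp4 from a range of 1.16 to 1.31 to one of 0.986 to 1.05. In 8 of the 10 pairs of members the control sections of the stages did not overlap, the exceptions being Musk to Rapsn and Agrn to Dok7. Pairs that share a member are not independent. The share of all gene pairs without overlap was not counted, so this tally does not set the members apart. A ratio compares the change of 2 genes and does not say how many molecules either has, because probes differ in yield.

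In the CaV1.1 KO, Musk was the member with the highest level relative to controls at both stages. At E14.5 it stood at 84.1 TMM-scaled CPM in muscle against 64.1, 47.8 and 59.9 in controls, and at E18.5 at 81.9 against 54.9 and 58.1. The log2 fold change was 0.56 ± 0.16 at E14.5 and 0.54 ± 0.17 at E18.5, and neither passed the test (edgeR adjusted p = 0.13 and 0.051). The E18.5 value passed in 8 of 13 alternatives, among them DESeq2 (0.53, adjusted p = 0.032) and total UMIs (1.07, adjusted p = 0.0014). It missed the threshold in 5, among them center spots alone (0.35, adjusted p = 0.21) and the fit without E14.5 control 3 (adjusted p = 0.087). The fits without E18.5 control 1 or E18.5 control 2 missed it too. Lrp4 was the single member called, lower at E18.5 with 16.6 against 24.6 and 27.1 (-0.64 ± 0.15, adjusted p = 0.018), where 25.7% of genes were called. The call was lost in 4 of 13 alternatives, among them center spots alone (-0.68, adjusted p = 0.069) and muscle spots away from other tissue (-0.43, adjusted p = 0.094). Scaled to total UMIs, Lrp4 was at 17.6 CPM against 17.9 and 19.8 and not called (-0.10, adjusted p = 0.61), while the median gene moved by 0.54. Scaled to the 9 sarcomere genes, which differ between these groups, it reversed to 0.77 (adjusted p = 0.014) with the median gene at 1.40. Relative to the median the value was -0.64 under all 3 scalings. A change of scaling shifts all genes nearly alike, so this match was fixed in advance and adds no evidence to the call. At E14.5, where 2.08% of genes were called, Lrp4 was at 13.95 against 15.7 to 18.03 (-0.26 ± 0.14, adjusted p = 0.39).

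Agrn, Dok7 and Rapsn were within 0.13 (log2) of controls in the CaV1.1 KO at both stages and were not called. Their 95% intervals at E18.5 were -0.34 to 0.21, -0.39 to 0.18 and -0.55 to 0.49, so changes of up to these sizes could not be seen. On total UMIs Agrn (0.47) and Dok7 (0.43) were called higher at E18.5 (adjusted p = 0.015 and 0.017), both below the shift of the median gene. The KO effect did not differ by the test between the stages for any member (adjusted p from 0.27 to 0.97, 6.4% of genes called). Without any scaling, Musk to Lrp4 was 6.03 in the KO at E14.5 (95% exact interval 5.38 to 6.77) against 3.035 to 3.87 in controls. At E18.5 it was 4.94 (4.34 to 5.63) against 2.15 and 2.23. These intervals cover counting error within 1 section and not the spread between embryos. Neither gene was called in the KO at E14.5. Muscle of the KO also differed in what else it held: the sarcomere genes took 7.04% of UMIs in its intermediate spots at E18.5 against 13.4% and 13.7% in E18.5 controls, and Schwann cell markers summed to 178 CPM there against 27.8 and 33.0. Their part in these values was not tested, and fewer cells of a type and less RNA per cell cannot be told apart in spots.

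In each mutant section Musk was higher in the center than in intermediate spots. Center spots were picked as a fixed share of each section, so they exist with or without an endplate band. Of their muscle neighbors, 33.0% were center spots in the CaV1.1 KO at E18.5, against 58.96% and 60.1% in controls. The share was 53.1% in the bCat cKO, and 42.1% in the KO at E14.5 against 37.9% to 47.2% in controls. The paper reports that Musk and Chrna1 spread beyond the fiber center in the KO at E18.5. Whether a central zone was kept there was not tested. In the CaV1.1 KO Musk was 135 in the center against 79.3 in intermediate spots at E14.5, and 132 against 80.2 at E18.5, and in the bCat cKO 91.1 against 61.4. These are log2 fold changes of 0.77 ± 0.20, 0.72 ± 0.22 and 0.57 ± 0.21, each from 1 section, with edgeR adjusted p = 0.096, 0.44 and 0.55. The difference from the center difference of controls was -0.07 (95% interval -0.58 to 0.44), -0.25 (-0.80 to 0.30) and -0.40 (-0.93 to 0.12), none called. No member was called in these 3 contrasts (edgeR adjusted p from 0.80 to 1), nor was nearly any gene: 0%, 0% and 0.0133% of 15025 were called, with 437, 979 and 379 at an unadjusted p under 0.05 and 0, 0 and 5 called by DESeq2. By distance, Musk in the KO at E14.5 fell over 6 bins as 148, 113, 80.9, 67.2, 52.7 and 38.6 CPM of total UMIs. At E18.5 it went from 131 to 88.6, 82.8 and 61.0 in the KO, and from 75.5 to 46.2, 42.6 and 43.1 in the bCat cKO. Levels on this scale are not like for like with controls, since the median gene was 0.54 (log2) higher in the KO at E18.5 on it. Intermediate Musk was 81.1 in that KO section against 34.3 and 36.6 in CPM of total UMIs, but 80.2 against 54.4 and 58.2 with TMM scaling. Center spots held 22.7% (95% exact interval 20.6 to 25.01) of Musk UMIs of muscle in the KO at E18.5 and 21.6% (19.96 to 23.3) in the bCat cKO, against 29.5% and 29.8% in controls. In the KO at E14.5 they held 32.65%, against 20.99% to 32.1% in E14.5 controls. Their shares of the UMIs of all genes in these mutants were 15.1%, 14.1% and 22.4%. The intervals cover counting error within 1 section only. The KO section at E18.5 held 813 muscle spots against 3092 and 2199 in controls, so its Musk share rests on fewer counts.

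**Figure D5:**
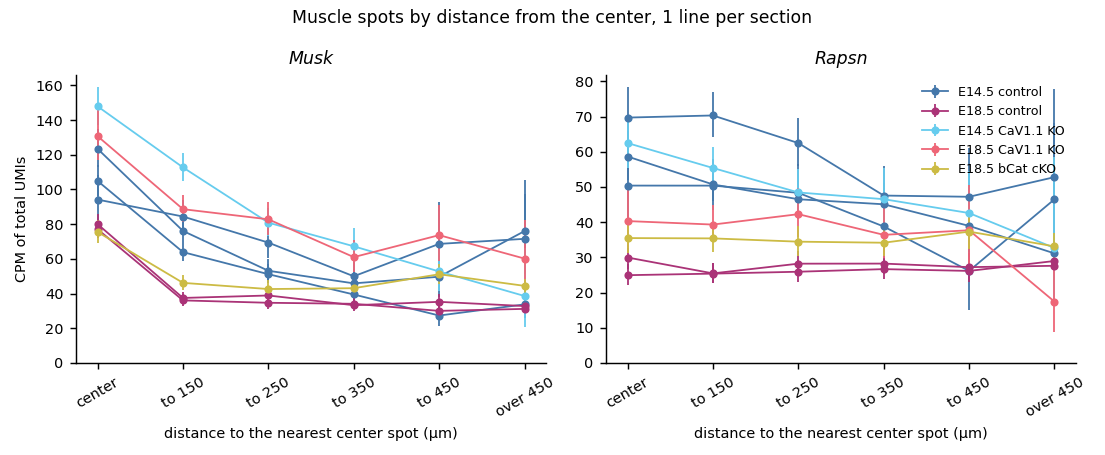
Musk (left) and Rapsn (right) in muscle spots by distance to the nearest center spot, as CPM of total UMIs with exact Poisson 95% intervals, 1 line per section. Musk of E18.5 controls is flat beyond the center, and Musk of the CaV1.1 KO at E18.5 lies above both controls in every bin, on a scale where the median gene was 0.54 (log2) higher in the KO.

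In the bCat cKO no member was called in muscle as a whole. As TMM-scaled CPM, Agrn, Lrp4 and Dok7 were below both controls and Musk and Rapsn above them, Musk barely so (58.3 against 54.9 and 58.1). In CPM of total UMIs Dok7 lay between the controls, at 19.2 against 18.8 and 19.5. Agrn stood at 44.6 TMM-scaled CPM in muscle against 57.2 and 65.2, and Lrp4 at 18.1 against 24.6 and 27.1. The log2 fold changes were -0.46 ± 0.12 and -0.51 ± 0.14, and missed the threshold (edgeR adjusted p = 0.055 and 0.064), where 8.8% of genes were called. Without E18.5 control 1 Agrn passed (-0.55, adjusted p = 0.035). In center spots alone both passed, at -0.80 for Agrn (adjusted p = 0.0034) and -0.83 for Lrp4 (adjusted p = 0.019). In these center spots Lrp4 was at 20.2 against 32.9 and 40.7, and only 0.07 ± 0.18 (log2) above the intermediate spots of the same section. Scaled to total UMIs, Agrn in muscle was at -0.24 and Lrp4 at -0.30, with the median gene moved by 0.21. Scaled to the 9 sarcomere genes they were at 0.07 and 0.01, with the median gene moved by 0.52. Musk (0.05 ± 0.17), Dok7 (-0.21 ± 0.12) and Rapsn (0.14 ± 0.22) were not called (adjusted p = 0.89, 0.31 and 0.74). The ratio of Rapsn to Lrp4 was 2.27 in the bCat cKO against 1.40 and 1.49, and that of Agrn to Lrp4 2.46 against 2.32 and 2.41. The bCat cKO and the CaV1.1 KO at E18.5 share the same 2 control sections.

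The other genes of the pathway were read as 4 lists, chosen with earlier results of these data known. Of the 5 acetylcholine receptor subunits, which rapsyn clusters, 2 rose and 3 fell in control muscle from E14.5 to E18.5 with TMM scaling, where 65.6% of all genes were called. The adult subunit Chrne changed by 2.84 ± 0.19 and the fetal subunit Chrng by -1.69 ± 0.16 (edgeR adjusted p = 1.1e-05 and 5.0e-05). In the CaV1.1 KO at E18.5, 4 of 5 subunits rose, led by Chrne (1.35 ± 0.22) and Chrnd (1.06 ± 0.17), where 25.7% of all genes were called, with a list median of 0.96 against 1e-04 for all genes. At E14.5 only Chrne was called there, lower (-2.64 ± 0.42, adjusted p = 0.029). The authors did not detect Chrne in control diaphragm at E14.5. Its counts are not given here and the value rests on 1 KO section, so its size is not read as a loss of the adult subunit. In the bCat cKO Chrng rose (1.08 ± 0.19, adjusted p = 0.018) and Chrne fell (-1.85 ± 0.26, adjusted p = 0.0087). In the center of E18.5 controls Chrne was 3.60 ± 0.33 above intermediate spots.

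Of 18 genes of MuSK signalling 16 were tested, and in control muscle 7 rose and 9 fell over development (65.6% of all genes called), with a median of -0.25. Shc4, an adaptor that binds MuSK, was raised in the center at E18.5 (1.66 ± 0.24, edgeR adjusted p = 6.2e-04). The change of this center difference from E14.5 was 1.69 ± 0.37 (adjusted p = 0.038), about as large as the E18.5 rise itself, so no rise at E14.5 is shown. The kinase Pak1 was raised in the center at E14.5 (0.39 ± 0.09, adjusted p = 0.025). In the CaV1.1 KO at E18.5, 4 of 16 fell, led by Pak1 (-1.47 ± 0.20) and Ywhag (-0.86 ± 0.13), and 0 rose, a share near the 25.7% of all genes called. In the bCat cKO 1 of 16 rose, Macf1 (0.72 ± 0.14, adjusted p = 0.025), and 1 fell, where 8.8% of all genes were called.

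Of 13 genes of the endplate matrix and the dystroglycan complex, 8 rose, among them Dtna (2.62 ± 0.15), and 1 fell over development, with a list median of 0.81. This share is near the 65.6% of all genes called. Colq, the collagen tail of acetylcholinesterase, was higher in the center at both stages (0.79 ± 0.16 and 1.46 ± 0.17, edgeR adjusted p = 0.0085 and 7.5e-05). It was lower in muscle of the CaV1.1 KO at E14.5 (-1.71 ± 0.23, adjusted p = 0.017) and of the bCat cKO (-1.10 ± 0.22, adjusted p = 0.025). In the CaV1.1 KO at E18.5 1 of 13 rose, Nid2 (0.99 ± 0.12), 2 fell and 10 were not called, with a list median of -0.40, where 25.7% of all genes were called.

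Of 8 neuregulin and Ets genes, 7 fell over development and 0 rose, led by the receptors Erbb4 (-2.07 ± 0.20) and Erbb3 (-1.70 ± 0.17), with a list median of -0.96 against -0.01 for all genes in the same fit, where 65.6% of all genes were called. Etv4, an Ets factor, was raised in the center at E18.5 by 2.24 ± 0.14 (edgeR adjusted p = 3.0e-08), a difference that was 2.48 ± 0.18 larger than at E14.5 (adjusted p = 5.1e-06). This rise was smaller in the bCat cKO by 1.95 ± 0.26 (adjusted p = 0.016), and Etv4 was 1 of the 2 genes called in that contrast. Erbb3 was raised in the center at both stages (0.42 ± 0.08 and 0.51 ± 0.10), as were the summed Schwann cell markers given above for the same spots. Erbb3 is also expressed by Schwann cells, and their part was not tested. In the CaV1.1 KO at E18.5, 3 of 8 rose and 1, Etv4, fell (-1.09 ± 0.16), where 25.7% of all genes were called.

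Over the 32 sums of section and region, Musk, Dok7 and Rapsn varied together and Agrn apart from them. Pearson r of log2 TMM-scaled CPM was 0.90 for Dok7 and Rapsn, 0.89 for Musk and Rapsn and 0.85 for Musk and Dok7. Lrp4 correlated at 0.57 to 0.71 with these, and Agrn at -0.71 with Rapsn and -0.15 with Lrp4. The sums share sections, libraries and the contrast of muscle with outside spots, so r over the 32 sums is a description. Over the single muscle spots of a section, which hold few UMIs of a member, r was low. It was 0.005 to 0.083 for Musk and Dok7, 0.005 to 0.146 for Musk and Rapsn and -0.01 to 0.184 for Dok7 and Rapsn. Among 6084 well-expressed genes, those most like each member over the 32 sums were Chrnd (0.94, a gene of the center score), Aif1l (0.93) and Sept4 (0.93) for Musk. For Rapsn they were Zdbf2 (0.97), the slow troponin Tnni1 (0.96) and Wdr44 (0.96), and for Dok7 Rbm24 (0.97), the slow troponin Tnnt1 (0.95) and Stac3 (0.95), a component of excitation-contraction coupling. For Lrp4 they were Msi2 (0.93), Apobec2 (0.92) and Ehd4 (0.91), and for Agrn the matrix gene Fbln2 (0.89), Plod3 (0.84), which modifies collagen, and Auts2 (0.83).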

How the data were processed

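Formalin-fixed sections of 8 diaphragms were measured with 10x Visium probes. The authors made the deposited counts, whole UMIs per gene and spot, with Space Ranger (per the file headers 2.0.0 for E14.5 controls 1 and 2 and the E14.5 CaV1.1 KO, and 2.0.1 for the others) on mm10 with probe set v1.0. Neither replicates nor sections were pooled in these counts. For their own clustering the authors integrated the sections. Deposited tables of spatial autocorrelation per gene were not used here.

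Tissue spots with at least 1000 UMIs were kept. Muscle spots were those above an Otsu threshold on the mean log-normalised level of 9 sarcomere genes (Acta1, Actn2, Des, Myl1, Mylpf, Neb, Ryr1, Tnnt3, Ttn), and the periphery score used Col22a1, Ankrd1, Rxrg and Uchl1. UMIs were summed by section and region, since spots are not replicates. Muscle sums (8 sums, 5 groups, 3 residual degrees of freedom, 14832 genes) and region sums (32 sums with the section as a block, 9 residual degrees of freedom) were fitted with edgeR 4.0.16 (filterByExpr, TMM, quasi-likelihood F test, limma 3.58.1, R 4.3.3), with Benjamini-Hochberg adjusted p under 0.05 as the call. The 20 score genes were left out of the region counts. SE is the log2 fold change over the root of F, and mutant groups of 1 section were assumed to vary like the controls. Ratios and shares have exact binomial and profiles exact Poisson 95% intervals, for counting error only. Alternatives were DESeq2 1.42.0, no filter, other scalings, spot choices and blocks, and leaving out each control. Scaling to total UMIs was added after seeing the data. The fitting was tested on simulated data. Scripts ran in Python 3.11.15 (numpy 2.4.6, scipy 1.17.1, pandas 2.3.3, matplotlib 3.10.9).

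The members and all gene lists were chosen with earlier results of these data known. Named genes are the members, the targeted genes, the 2 called genes of each pathway list with the largest fold change in a comparison, and the 3 genes most like each member. Some genes that this rule would name are not reported here. Center and intermediate sums of a section deviated together (r from 0.20 to 0.73), which is the reason for the section block. Equal replicate numbers at E14.5 and E18.5 belong to different embryos.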

Additional observations from a re-analysis of the deposited data

Results flagged for a closer look

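In control muscle, Rapsn was higher in center than in intermediate spots in 3 of 3 sections at E14.5 and lower in 2 of 2 at E18.5, as TMM-scaled CPM. The change between the stages was -0.39 ± 0.18 (log2, SE), and did not pass the test (edgeR adjusted p = 0.33).

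At E18.5, Rapsn was higher in the center in the 1 CaV1.1 KO section and lower in 2 of 2 controls, a difference of 0.35 ± 0.28 (edgeR adjusted p = 0.84). Dok7 was higher in the center in the 1 bCat cKO section and lower in 2 of 2 controls, a difference of 0.39 ± 0.28 (edgeR adjusted p = 1). Each of these differences rests on a single mutant section.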

How the results depend on the processing

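Of 912 values of single members under the alternatives, 765 kept their direction and side of the threshold, 28 newly passed it, 20 lost it and 99 changed sign, 48 of these under the other scalings. Below, stage, KO and cKO stand for the comparisons of muscle, change for E18.5 minus E14.5, and center, periphery and outside for the comparison with intermediate spots, where center KO and center cKO are mutant minus control. The cause of these changes was not tested, except that leaving out sections lowers the residual degrees of freedom. Each mutant value rests on 1 section. Counts of some members were low, such as 286 to 1355 UMIs of Lrp4 in the muscle of a section, and the part of depth was not tested.

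With DESeq2, counts of called genes became 710 (KO at E14.5, was 308), 1523 (KO change, was 949), 275 (center change, was 148) and 5 (center cKO, was 2). Without a filter on low counts, counts of called genes became 536 (KO at E14.5, was 308), 466 (center E18.5, was 295), 316 (center change, was 148), 1 (center KO E18.5, was 0), 8 (center cKO, was 2) and 379 (periphery E14.5, was 193). Scaled to the 9 muscle genes, counts of called genes became 4939 (KO at E14.5, was 308), 12468 (KO at E18.5, was 3819), 3886 (cKO, was 1305), 4715 (KO change, was 949), 754 (center change, was 148), 1 (center KO E18.5, was 0), 0 (center cKO, was 2) and 46 (periphery E14.5, was 193). Log2 values of opposite sign were Agrn -2.80, Lrp4 -2.56, Dok7 -2.85 (stage), Lrp4 0.29, Dok7 0.43, Rapsn 0.58 (KO at E14.5), Agrn 1.34, Lrp4 0.77, Dok7 1.3004, Rapsn 1.37 (KO at E18.5), Agrn 0.068, Lrp4 0.011, Dok7 0.31 (cKO), Agrn 0.66, Lrp4 0.48, Musk 0.82, Rapsn 0.79 (KO change), Dok7 0.16, Rapsn 0.15 (center E18.5), Lrp4 0.51, Dok7 0.10, Rapsn 0.14 (center change), Dok7 -0.0702 (center KO E14.5), Agrn -0.22, Dok7 -0.39, Rapsn -0.13 (center KO E18.5) and Agrn 0.28, Lrp4 0.37, Rapsn 0.16 (periphery E18.5). In intermediate spots alone, log2 values of opposite sign were Musk 6e-04 (stage) and Musk 0.081 (KO change). In center spots alone, counts of called genes became 1712 (KO at E18.5, was 3819) and 264 (KO change, was 949). Log2 values of opposite sign were Musk 0.12, Dok7 -0.066 (stage), Rapsn 0.061 (KO at E14.5), Agrn 0.15, Dok7 0.018, Rapsn 0.18 (KO at E18.5), Musk -0.25, Dok7 0.14 (cKO) and Agrn 0.07, Rapsn 0.11 (KO change). In muscle spots away from other tissue, counts of called genes became 2525 (KO at E18.5, was 3819) and 281 (KO change, was 949). Log2 values of opposite sign were Agrn 0.025, Dok7 0.0035, Rapsn 0.17 (KO at E18.5) and Musk 0.11, Rapsn 0.19 (KO change). Scaled to total UMIs, counts of called genes became 7995 (KO at E18.5, was 3819), 2826 (cKO, was 1305), 4653 (KO change, was 949), 559 (center change, was 148) and 3455 (periphery E18.5, was 2230). Log2 values of opposite sign were Agrn -0.34, Lrp4 -0.097, Dok7 -0.39 (stage), Rapsn 0.011 (KO at E14.5), Agrn 0.47, Dok7 0.43, Rapsn 0.51 (KO at E18.5), Dok7 0.0042 (cKO), Agrn 0.34, Lrp4 0.15, Musk 0.51, Rapsn 0.50 (KO change), Dok7 0.016, Rapsn 0.0016 (center E18.5), Lrp4 0.13 (center change), Dok7 -0.11 (center KO E18.5), Rapsn -0.0031 (center cKO) and Agrn 0.045, Lrp4 0.14 (periphery E18.5). With center and periphery at 10%, log2 values of opposite sign were Agrn -0.025 (center E18.5), Lrp4 0.018 (center change), Dok7 -0.15 (center KO E14.5), Rapsn -0.068 (center cKO) and Dok7 -0.012 (periphery E14.5). With center and periphery at 25%, counts of called genes became 135 (center E18.5, was 295), 91 (periphery E14.5, was 193) and 1200 (periphery E18.5, was 2230). Log2 values of opposite sign were Agrn -8e-04 (center E18.5), Musk -0.077 (center change), Musk 0.012 (center KO E14.5), Lrp4 0.20 (center KO E18.5) and Agrn 0.0075 (periphery E14.5).

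Leaving out 1 control at a time, counts of called genes ranged over 65 to 391 (KO at E14.5), 576 to 1459 (cKO), 0 to 1105 (KO change), 48 to 810 (center E14.5), 84 to 258 (center E18.5), 27 to 246 (center change), 0 to 1 (center cKO), 5 to 256 (periphery E14.5) and 740 to 2304 (periphery E18.5). Log2 values whose sign changed ranged over Musk -0.14 to 0.075 (stage), Rapsn -0.10 to 0.20 (KO at E14.5), Agrn -0.16 to 0.031 (KO at E18.5), Musk -0.12 to 0.099, Dok7 -0.01 to 0.061, Rapsn -0.23 to 0.071 (KO change), Agrn -0.025 to 0.16 (center E18.5), Lrp4 -0.14 to 0.059, Musk -0.028 to 0.26 (center change), Musk -0.22 to 0.067, Dok7 -0.046 to 0.36 (center KO E14.5), Dok7 -0.033 to 0.17 (center KO E18.5), Rapsn -0.084 to 0.16 (center cKO) and Lrp4 -0.33 to 0.0085, Dok7 -0.082 to 0.21 (periphery E14.5).

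Equal replicate numbers at the 2 stages pair no embryos (r = -0.33 and -0.32 between control deviations of the same number), so this block is given here alone. With the replicate block, counts of called genes became 0 (KO at E14.5, was 308), 81 (cKO, was 1305) and 0 (KO change, was 949). Log2 values of opposite sign were Musk 0.028 (stage), Musk -0.042 (cKO) and Rapsn 0.055 (KO change). With no replicate block (here the section), counts of called genes became 44 (center E14.5, was 706), 77 (center E18.5, was 295), 14 (center change, was 148), 1 (center cKO, was 2), 18 (periphery E14.5, was 193) and 423 (periphery E18.5, was 2230).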
